A study of Mus musculus with 6 samples.

Results

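The interferon regulatory factors (Irf genes) encode a family of transcription factors that share a DNA-binding domain which recognises GAAA-containing sequences. The members described here were taken by symbol from the gene list of the deposited matrices: Irf1, Irf2, Irf3, Irf4, Irf5, Irf7, Irf8 and Irf9, which are 8 of 32285 genes. They were described across the progenitor classes and clusters that the authors assigned to the cells, and between leukemic and control mice by library.

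The study asked how healthy hematopoietic stem and progenitor cells (HSPCs) change in a leukemic marrow. Female C57BL/6J mice carrying CD45.1 and aged 8 to 12 weeks, none of them conditioned beforehand, received 1000000 C1498 cells or PBS, and marrow was taken on day 21. C1498 is a mouse acute myeloid leukemia (AML) line marked by CD45.2, so a sort on CD45.1 was meant to leave host cells only. Both groups were sorted as Lin- cKit+ Sca1+ (LSK) cells and profiled as single cells with the 10x Genomics assay, giving 3 PBS and 3 AML libraries (PBS1 to PBS3 and AML1 to AML3). The labels name no animal for a library, so p-values below measure the spread between these libraries only.

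The libraries held between 7089569 and 41220306 UMIs (unique molecular identifiers, each standing for 1 captured RNA molecule). The authors' table of 16822 retained cells held 6838 cells of PBS1, 934 of PBS2, 4398 of PBS3, 693 of AML1 and 3959 of AML3, with none of AML2, whose values are given at the end. Median UMIs per cell were 4015, 9586 and 4388 in the PBS libraries against 2393 in AML1 and 5910 in AML3. AML1 stood apart: only 23 of its cells were in the HSC class, and 363 of its 693 cells were called G2M. Barcodes were also shared between libraries (97.4% of those of PBS2, 7.43% to 43.4% of the others), although only 2 to 26 retained cells of a library carried the barcode of a retained cell elsewhere, and leaving these out ended no Irf8 or Irf7 call over all LSK cells or in a class. All 1223 shared barcodes of PBS2 were also in AML2. Whether UMIs of 1 library were assigned to another cannot be told from the files and could alter PBS2 values; without PBS2 the Irf8 log2 fold change over all LSK cells was 1.89 (adjusted p = 0.0309), in MPP-2 1.99 (adjusted p = 0.0320), and Irf7 in HSC 1.25 (adjusted p = 0.00708), in edgeR (tests described below). Levels below are CPM, the UMIs of a gene scaled to a total of 1000000 UMIs in the same cells, and a cell's call to a class was close in 7379 cells (43.9%), whose best and next class scores lay within 0.05.

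Members of the family fall into 3 working groups. Irf3, Irf5 and Irf7 are activated downstream of nucleic acid sensors and Toll-like receptors and drive interferon genes, with Irf7 itself induced by type I interferon. Irf1 is an activator induced by interferon gamma, Irf2 mostly counteracts it at the same sites, and Irf9 is the DNA-binding subunit of the complex that carries the type I interferon signal to interferon-stimulated genes. Irf4 and Irf8 bind DNA poorly alone and act with partner factors, and they are known for directing blood lineages: Irf8 for monocytes and dendritic cells, Irf4 for plasma cells and later lymphoid stages.

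In the mouse genome (RefSeq, GRCm38.p6) the 8 genes lie on 6 chromosomes: Irf1 at chr11:53770014-53778374, Irf2 at chr8:46739745-46847458, Irf3 at chr7:44997648-45002848, Irf4 at chr13:30749233-30766981, Irf5 at chr6:29526130-29541869, Irf7 at chr7:141263183-141266499, Irf8 at chr8:120736358-120756694 and Irf9 at chr14:55603985-55610030. The stretch from 250 bases before to 50 bases after each start site was searched on both strands for 3 motifs of interferon signalling. These were the GAS element TTCNNNGAA (bound by STAT factors, present in 8.3% of 32851 mouse promoters of the same length), the core of the interferon-stimulated response element (ISRE; GAAA, 2 free bases, GAAA; 3.44%) and the ETS-IRF composite (GGAA, 2 free bases, GAAA; 2.72%). Irf8 held GAS matches at positions -171 and -153 from its start site, Irf1 held one at -90, and Irf2 held a GAS match at -224 together with an ISRE core at -241 that overlaps a composite match at -247. None of the 3 motifs was found in the windows of Irf3, Irf4, Irf5, Irf7 and Irf9, which says only that these letters are absent there. The 250 bases before the start sites of Irf8 (chr8:120736108-120736357, plus strand) and Irf7 (chr7:141266425-141266674, minus strand) are shown because these were the members whose levels passed a test below, with GAS matches in capitals, and the Irf7 stretch has none.
Irf8: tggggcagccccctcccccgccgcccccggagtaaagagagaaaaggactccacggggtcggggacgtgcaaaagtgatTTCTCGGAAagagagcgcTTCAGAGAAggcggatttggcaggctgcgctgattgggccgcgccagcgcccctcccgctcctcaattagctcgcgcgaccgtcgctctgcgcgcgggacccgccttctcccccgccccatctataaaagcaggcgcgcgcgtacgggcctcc
Irf7: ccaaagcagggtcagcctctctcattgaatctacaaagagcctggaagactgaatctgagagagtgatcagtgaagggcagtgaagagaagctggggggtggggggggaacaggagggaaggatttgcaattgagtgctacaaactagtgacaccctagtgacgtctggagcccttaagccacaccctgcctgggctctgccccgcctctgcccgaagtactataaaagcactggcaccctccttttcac

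Among control cells, Irf2 and Irf8 had opposite ends of the class order. Irf2 was highest in the HSC class, at 148, 142 and 144 CPM in PBS1, PBS2 and PBS3, followed by the MPP-4 class at 135, 129 and 120. Its mean fell further to 91.9 CPM in the MPP-2 class and 66.1 CPM in the MPP-3 class. No neighbouring pair of classes overlapped across the PBS libraries for Irf2. HSC are the stem cells of the gate, MPP-2 are megakaryocyte-erythroid primed, MPP-3 are myeloid primed and MPP-4 are lymphoid primed multipotent progenitors. All 14 HSC, 8 MPP-3 and 8 MPP-4 markers were detected in every library, and the summed HSC markers were 1818 to 2431 CPM within the HSC class. The MPP-4 markers went against the class names, since Ighm alone reached 4283 to 28264 CPM in the MPP-3 class; without Ighm the other 7 summed to 1423 to 1687 CPM in the MPP-4 class and 407 to 789 CPM in the MPP-3 class. Classes and clusters were made from expression in the same cells, so these orders are descriptions without a test.

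Irf8 was lowest in the HSC class, at 4.42, 3.42 and 4.51 CPM in PBS1, PBS2 and PBS3, and highest in the MPP-3 class, at 32.5, 22.1 and 55.3 CPM. MPP-4 cells had 29.7, 12.2 and 31.8 CPM, and MPP-2 cells had 20.3, 8.50 and 23.5 CPM. The order MPP-3, MPP-4, MPP-2, HSC held in 3 of 3 PBS libraries, but only the HSC class was separate from its neighbour in the range over libraries.

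Irf7 followed neither order. It was highest in the MPP-4 class, at 116, 95 and 62.4 CPM in PBS1, PBS2 and PBS3, with the HSC class next at 91.5, 73.6 and 56.9 CPM. MPP-2 (mean 41.2 CPM) and MPP-3 (mean 38.5 CPM) lay below and overlapped each other. Irf1 and Irf9, which are both interferon-induced, had means in the same upper pair of classes: Irf1 73.0 CPM in MPP-4 and 69.3 in HSC against 44.8 in MPP-2 and 40.0 in MPP-3, and Irf9 38.2 CPM in HSC and 37.9 in MPP-4 against 25.9 in MPP-2 and 23.6 in MPP-3. Neighbouring classes overlapped for Irf1 and Irf9, and also for Irf3 (means 31.9 to 45.5 CPM) and Irf5 (means 4.15 to 9.22 CPM).

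Most Irf4 UMIs came from a small population. In the HSC class it had 0 UMIs in PBS1, PBS2 and PBS3, and in the MPP-2 class 1, 0 and 1 UMIs. The MPP-3 class had 43, 11 and 43 UMIs (10.6, 18.7 and 16.0 CPM), and of these 41, 11 and 42 came from the cells of cluster 6. Cluster 6 held 57, 12 and 40 cells of the PBS libraries and had summed plasma cell markers (Jchain, Igha, Mzb1, Sdc1 and Xbp1) of 57320 CPM in PBS1 and 45231 CPM in PBS3. In AML3, too, 67 of the 69 Irf4 UMIs of MPP-3 cells were in cluster 6, and 1 cell of AML3 carried 18 UMIs. Outside cluster 6 the MPP-3 class thus held 0 to 2 Irf4 UMIs per library. The MPP-4 class had 10, 1 and 10 UMIs in PBS1, PBS2 and PBS3 (0.867, 0.253 and 1.46 CPM) and 0 and 14 in AML1 and AML3, and cluster 2 of all classes had 9, 1, 5, 0 and 13 in the same order.

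The clusters of the authors' table divided the same cells more finely, and their orders cover clusters with at least 20 cells, which leaves out clusters 6 to 8 of PBS2 and 5 to 8 of AML1. Cluster 4, whose summed MPP-3 markers (Mpo, Elane, Ctsg and others) were 5721 to 7681 CPM, had the highest Irf8 in 5 of 5 libraries, at 153, 46.9 and 134 CPM in PBS1, PBS2 and PBS3 and 256 and 254 CPM in AML1 and AML3. Irf5 was also highest there in both AML libraries (22.1 CPM from 5 UMIs in AML1, 16.0 CPM in AML3) and lay between 3.10 and 18 CPM in the PBS libraries. Cluster 2 had the highest Irf7 in 3 of 3 PBS libraries, at 167, 135 and 90.0 CPM (in AML3 it was cluster 7, at 270 CPM from 38 UMIs), while cluster 4 had 55.4, 38.1 and 24.8 CPM. Clusters 5 to 8 are small, and Irf4 had 0 UMIs in clusters 5, 7 and 8 of every library.

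**Figure D1:**
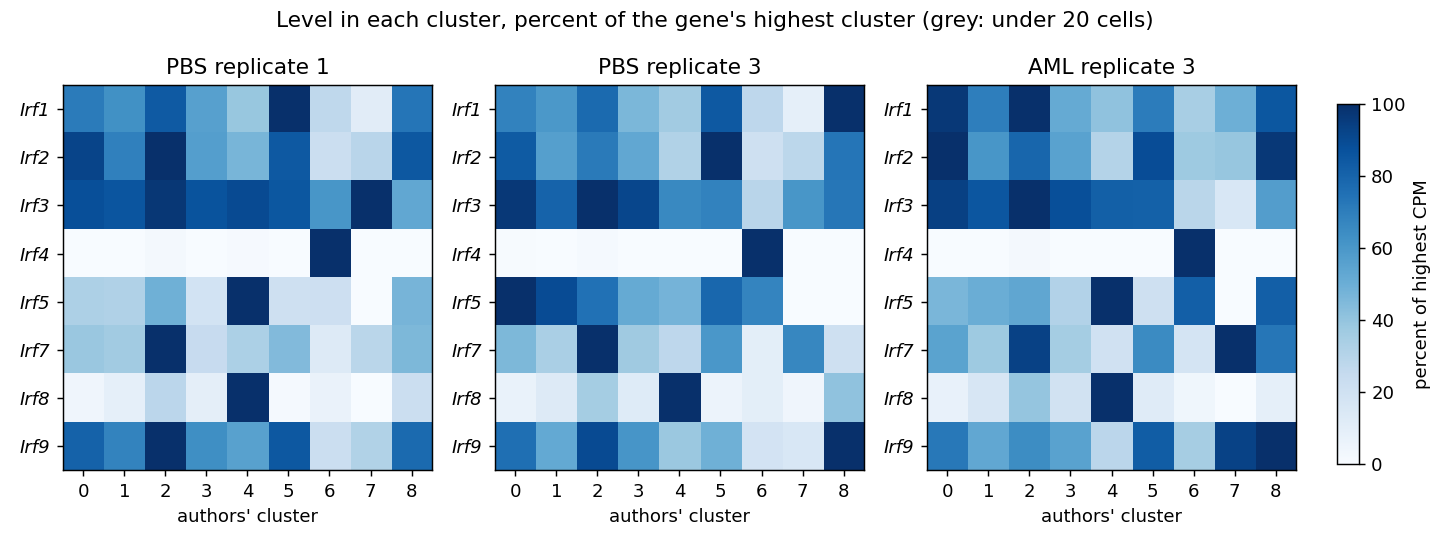
CPM of each member in clusters 0 to 8 as a percent of the gene's highest cluster, by colour, in PBS1, PBS3 and AML3, the libraries with at least 20 cells in every cluster. Irf8 is darkest in cluster 4 and Irf4 in cluster 6 of all 3 libraries, and Irf7 is darkest in cluster 2 of PBS1 and PBS3.

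By the cell cycle phase of the authors' table, Irf8 again differed from the rest of the family. Irf1, Irf2, Irf3, Irf4, Irf5, Irf7 and Irf9 each had their highest CPM in G1 cells in 5 of 5 libraries, which in AML1 rests on 1 UMI for Irf4 and 8 UMIs for Irf5. Irf7 was 117, 89.7 and 66 CPM in G1 cells of PBS1, PBS2 and PBS3 and 50.9, 34.4 and 25.3 CPM in S cells. Irf8 was 16.3, 6.57 and 18.3 CPM in G1 cells and 28.7, 17.7 and 35.6 CPM in S cells of the same libraries. In AML1 and AML3 Irf8 was highest in G2M cells, at 117 and 105 CPM, and lowest in G1 cells, at 50.7 and 41.0 CPM. Phase was called by the authors from expression in the same cells, so this too is a description.

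In leukemic mice 1 member was higher over all LSK cells, Irf8. It was 22.7, 9.80 and 26.8 CPM in PBS1, PBS2 and PBS3 and 106 and 80.3 CPM in AML1 and AML3, from 730, 102, 609, 206 and 2216 UMIs. The AML values exceeded all 3 control values, which was so for 16.0% of the 14364 genes tested. The means were 19.8 CPM ± 8.87 (SD, n = 3) and 93.1 CPM ± 18.1 (SD, n = 2), a ratio of 4.71. In edgeR's quasi-likelihood test on UMIs summed per library, the log2 fold change was 2.17 ± 0.333 (SE; positive values mean higher in AML) with an adjusted p of 0.0183 (Benjamini-Hochberg over all genes, threshold 0.05). The test called 1 of the 8 members, against a background of 0.16% of genes called in either direction and 0.153% called higher. The median log2 fold change of the members was 0.05 and that of all genes tested was -0.03. Irf7 and Irf8 are among the genes the study itself picked from these samples, so the values here are not independent evidence for them.

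**Figure D2:**
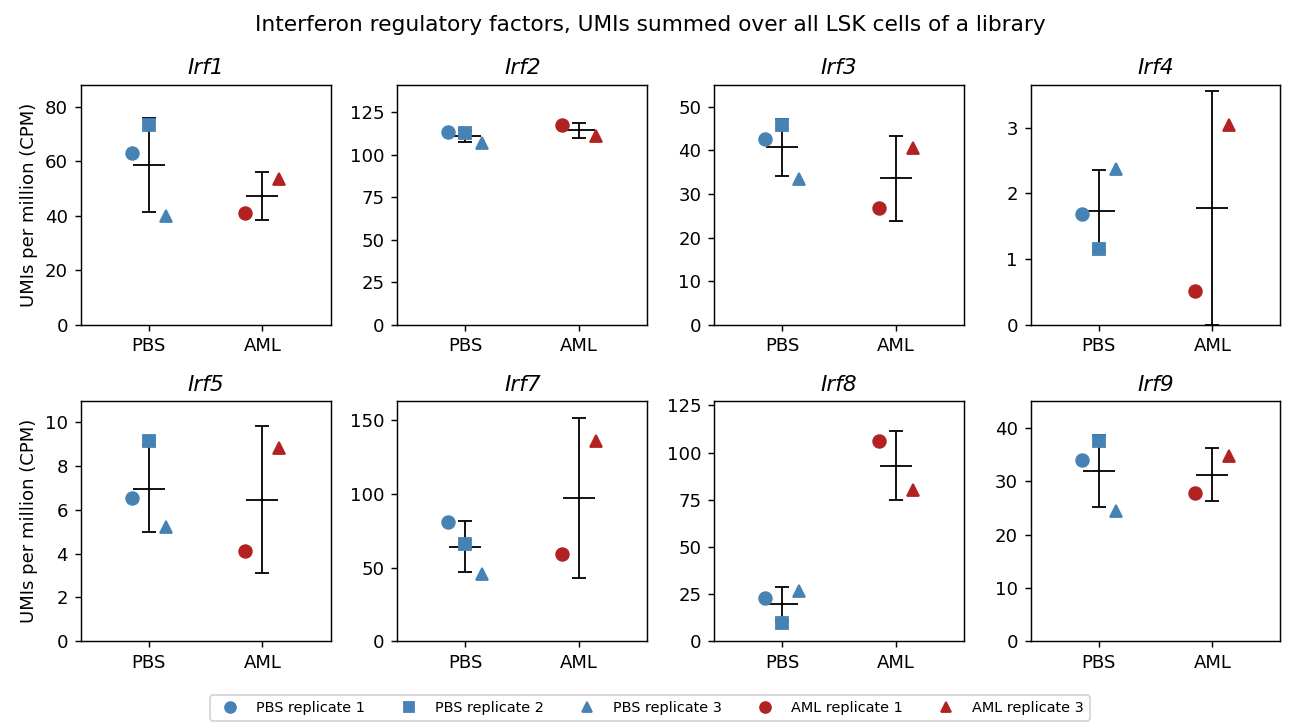
CPM of each member over all LSK cells, 1 point per library, PBS and AML side by side. The AML points of Irf8 lie above all 3 PBS points; those of the other members overlap the PBS range, and 1 AML library is high for Irf7.

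Irf7 did not pass over all cells. It was 81.0, 65.7 and 46.0 CPM in PBS1, PBS2 and PBS3, 59.1 CPM in AML1 and 136 CPM in AML3. AML3 was above every PBS library and AML1 lay within their range. The log2 fold change was 0.62 ± 0.301 (adjusted p = 0.489), and without AML3 it was -0.11.

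The other 6 members had log2 fold changes between -0.30 and 0.40, all with overlapping groups. Irf2, mostly a repressor, was at 113, 113 and 107 CPM in PBS1, PBS2 and PBS3 against 118 and 111 CPM in AML1 and AML3 (log2 fold change 0.01 ± 0.223, adjusted p = 0.986). Irf1 was 63.1, 73.3 and 39.8 CPM against 41.1 and 53.6 CPM (-0.30 ± 0.261, adjusted p = 0.672). Irf9 was 33.9, 37.5 and 24.4 CPM against 27.8 and 34.8 CPM (-0.02 ± 0.233, adjusted p = 0.982). The sensor-activated Irf3 had -0.25 ± 0.237 (adjusted p = 0.701) and Irf5 0.08 ± 0.319 (adjusted p = 0.947). Irf4, with 54, 12 and 54 UMIs in the controls and 1 and 84 UMIs in AML1 and AML3, had 0.40 ± 0.481 (adjusted p = 0.775). The signs of Irf1, Irf2, Irf4, Irf5 and Irf9 turned under at least 1 other setting, so no direction is given for them.

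The Irf8 call needed both AML1 and PBS1. Without AML1 the log2 fold change was 1.96 with an adjusted p of 0.0557, and without PBS1 it was 2.25 with an adjusted p of 0.133. The AML libraries also held more cells of the Irf8-high populations: cluster 4 made up 2.88%, 2.46% and 3.41% of PBS1, PBS2 and PBS3 cells and 11.1% and 9.57% of AML1 and AML3 cells, and the MPP-3 class 11.6%, 4.39% and 9.60% against 32.9% and 22.3%. Cluster 4 gave 29.0%, 15.7% and 28.4% of the Irf8 UMIs in the PBS libraries, 28.2% in AML1 and 47.3% in AML3. With cluster 4 left out the log2 fold change was 2.05 (adjusted p = 0.0275). Clusters 0 to 4 were also weighted to the mean PBS composition, an alternative chosen after the data were seen. Irf8 was then 21.8, 9.86 and 24.4 CPM in PBS1, PBS2 and PBS3 and 97.4 and 53.6 CPM in AML1 and AML3. The difference was 1.99 in limma and no longer passed (adjusted p = 0.399). That fit called 0 of all 14364 genes and also changes the test, so the lost call is not read as an effect of composition.

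Summed markers of other cells and classes are given beside this result. The 8 monocyte and macrophage markers, all detected in each library, summed to 22.9, 30.4 and 29.3 CPM in the controls and 46.8 and 59.5 CPM in AML1 and AML3. The 7 plasmacytoid dendritic cell markers summed to 271, 268 and 273 CPM against 322 and 355 CPM, with Klk1 at 0 in every library and the defining Siglech and Ccr9 also at 0 in AML1. The MPP-3 markers summed to 1349, 1023 and 1597 CPM against 2264 and 2182 CPM, and the HSC markers to 918, 950 and 842 CPM against 601 and 769 CPM. Markers of conventional dendritic cells overlapped (43.0 to 48.0 CPM against 24.7 and 80.9 CPM). Summed erythroid markers were 120 to 500 CPM in PBS against 50.9 and 232 CPM, MPP-2 markers 266 to 433 against 266 and 377 CPM, neutrophil markers 2.11 to 15.8 against 3.08 and 3.70 CPM, and plasma cell markers 971 to 1552 against 741 and 881 CPM. Of single markers, 2 of the MPP-3 list and 1 of the monocyte list were called higher and 1 of the plasma cell list lower. The monocyte gene is also in the MPP-3 list and is among its 2 calls. Mature monocytes, dendritic cells and plasma cells are cells that the Lin- cKit+ Sca1+ sort is meant to remove. With clusters 6, 7 and 8 left out, cluster 6 being high in plasma cell markers, Irf8 was still called over all LSK cells. Beyond this, the fit without cluster 4 and the reweighting above, the part of such cells in the Irf8 result was not tested.

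Within the classes Irf8 was called in MPP-2 cells and Irf7 in HSC; whether their effects differed between classes is tested below. In the MPP-2 class Irf8 was 20.3, 8.50 and 23.5 CPM in PBS1, PBS2 and PBS3 and 103 and 78.5 CPM in AML1 and AML3. The groups did not overlap, and the log2 fold change was 2.26 ± 0.322 (edgeR adjusted p = 0.0144; 1 of 7 members tested, background 0.0399%). The call was lost without AML1 (2.08, adjusted p = 0.110) and without PBS3 (2.61, adjusted p = 0.0608). It was also lost without the cells in the top 5% of UMI totals. Cells of cluster 4 were 3.67%, 1.52% and 3.79% of MPP-2 cells in the PBS libraries and 5.54% and 7.22% in AML1 and AML3, and carried 45.3%, 20% and 34.1% of their Irf8 UMIs against 18.9% and 45.5%. Monocyte markers summed to 17.1, 20.4 and 19.4 CPM in MPP-2 cells against 21.8 and 35.2 CPM. MPP-3 markers summed there to 976 to 1392 CPM in PBS against 1822 and 1602 CPM (8 of 8 with positive log2 fold changes, 1 called), and plasmacytoid dendritic markers to 150 to 183 against 262 and 268 CPM. The class's own MPP-2 markers summed to 428 to 742 against 377 and 631 CPM (1 of 9 positive), and HSC markers to 612 to 672 against 579 and 584 CPM (1 of 14 positive). Their part in the result was not tested.

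In MPP-3 and MPP-4 cells Irf8 was likewise above the PBS range without passing. MPP-3 cells had 32.5, 22.1 and 55.3 CPM in PBS1, PBS2 and PBS3 and 143 and 126 CPM in AML1 and AML3 (log2 fold change 1.64 ± 0.333, adjusted p = 0.0754; 0 of 8 members called, background 0.0486% in either direction and 0.0194% higher). The call was made without PBS3 (2.15, adjusted p = 0.0137). Cells of cluster 4 were 13.9%, 24.4% and 21.3% of MPP-3 cells in PBS1, PBS2 and PBS3 and 25.9% and 33.3% in AML1 and AML3, and carried 65.2%, 69.2% and 61.7% of their Irf8 UMIs against 45.5% and 73.8%. Summed plasma cell markers in MPP-3 cells were 7393 to 26659 CPM in PBS against 2217 and 3071 CPM, and the plasma cell, neutrophil, erythroid and MPP-2 lists each had 1 gene called lower there, the same gene in the last pair of lists. With clusters 6, 7 and 8 left out, Irf8 was called in MPP-3 cells. Cluster 6, which held most Irf4 UMIs, was 6.66%, 29.3% and 9.48% of MPP-3 cells in PBS1, PBS2 and PBS3. It was 3.51% and 6.69% in AML1 and AML3. Beyond this, the part of these lists in the MPP-3 values of Irf8 and Irf4 was not tested. In all MPP-3 cells Irf4 had -1.02 ± 0.456 (adjusted p = 0.609) and Irf5 0.90 ± 0.473 (adjusted p = 0.722). MPP-4 cells had 29.7, 12.2 and 31.8 CPM against 59.9 and 61.5 CPM (1.19 ± 0.290, adjusted p = 0.167; 0 of 8 members called, background 0.0325%). For HSC, Irf8 rested on 22, 6 and 16 UMIs in the controls and 2 and 17 UMIs in AML1 and AML3, and AML3, with 7.26 CPM, was close to the PBS libraries (0.86 ± 0.605, adjusted p = 0.992).

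Irf7 in HSC was the other call. The values were 91.5, 73.6 and 56.9 CPM in PBS1, PBS2 and PBS3, 81.6 CPM in AML1 from 5 UMIs in 23 cells, and 225 CPM in AML3 from 528 UMIs in 542 cells. AML3 was far above the PBS libraries and AML1 lay inside their range, so the groups overlapped. The log2 fold change was 1.22 ± 0.260 (edgeR adjusted p = 0.00271; 1 of 7 members tested, background 0.178% in either direction and 0.131% higher). The call rests on AML3: without it the log2 fold change was -0.27 (adjusted p = 0.878), in a fit whose median over all genes was -0.50 (-0.03 with AML3), so no sign is read from it, and it was also lost without PBS3 (1.10, adjusted p = 0.0819). DESeq2 and limma-voom gave 1.08 and 1.16 with adjusted p of 1.00 and 0.871; they called 0 genes of any kind in HSC, with 86 and 435 genes at an unadjusted p under 0.05. The Irf7 call was also lost after thinning each cell to 2000 UMIs and with the replicate block. Plasmacytoid dendritic cell markers in the HSC class summed to 223, 193 and 210 CPM in the controls and 441 and 280 CPM in AML1 and AML3, and HSC markers to 1931, 1963 and 1818 CPM against 2431 and 2284 CPM. In the same cells the erythroid markers summed to 2063, 176 and 939 CPM in PBS1, PBS2 and PBS3 against 32.6 and 102 CPM in AML1 and AML3 (6 of the 7 at 0 in AML1), and 4 of the 5 tested were called lower. Irf7 was also at 54.1, 138 and 60.6 CPM in the PBS barcodes under 1000 UMIs outside the authors' table (23, 7 and 9 UMIs). It was at 72.6 and 140 CPM in those of AML1 and AML3 (220 and 30 UMIs). The part of these in the Irf7 result was not tested.

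AML3 had more Irf7 than every PBS library in the remaining classes too. Its MPP-4, MPP-3 and MPP-2 cells had 209, 72.2 and 98.9 CPM, where the highest PBS values were 116, 61.3 and 48.3 CPM. AML1 had 97.0, 34.1 and 59.9 CPM, above the PBS range only in MPP-2 cells. MPP-4 cells had a log2 fold change of 0.78 ± 0.272 (adjusted p = 0.632), MPP-3 cells one of 0.39 ± 0.340 and MPP-2 cells one of 0.94 ± 0.257 (adjusted p = 0.309).

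**Figure D3:**
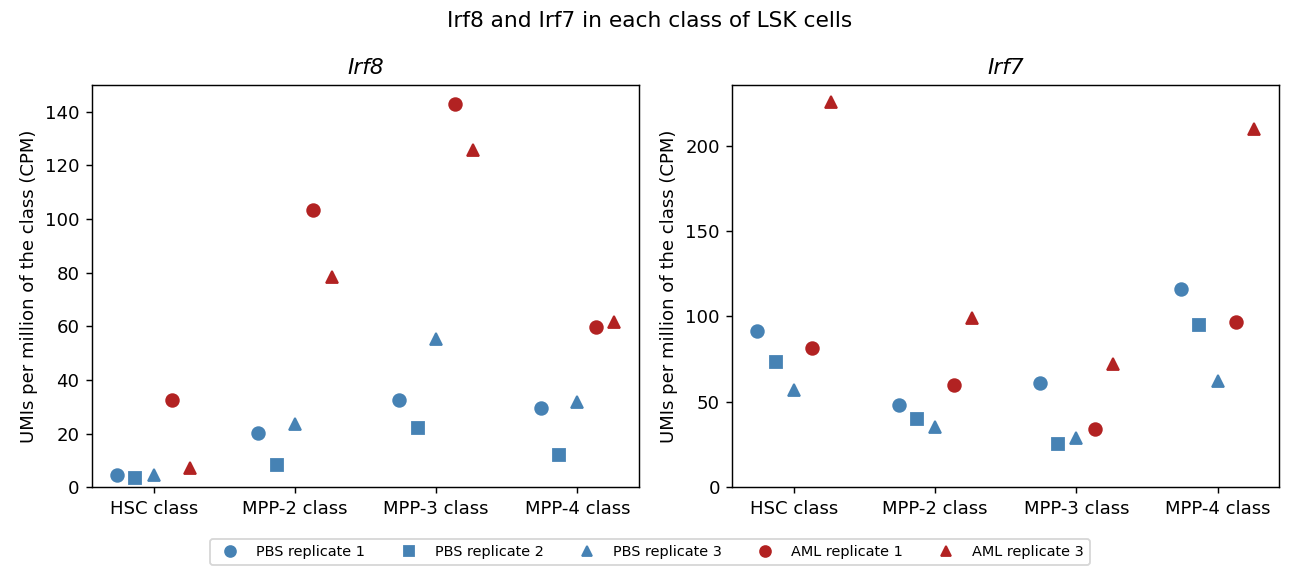
CPM of Irf8 and Irf7 in each class, 1 point per library. Both AML points of Irf8 lie above the PBS points in every class, while for Irf7 only the AML3 point stands clear of the PBS points in the HSC class.

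Whether the AML effect differed between the classes was tested directly, with the 3 class-by-group terms together in a fit with a term for each library, since the 4 class sums of a library share it. Irf8 was called (adjusted p = 0.00791; 1 of 8 members, background 0.872%): its log2 effect exceeded that in HSC by 0.34 in MPP-4, by 0.92 in MPP-3 and by 1.26 in MPP-2. The call was lost with limma-voom (adjusted p = 1.00) and with the replicate block (adjusted p = 1). It also rested on AML3, since without it the call was lost (adjusted p = 0.405; MPP-2 minus HSC -0.17, where the median of all genes was 0.55), and without PBS1 it was 1.32 (adjusted p = 0.0815). Irf7 went the other way, its effect being at -0.33, -0.79 and -0.23 log2 units relative to HSC in the same order, without passing (adjusted p = 0.0625). Irf8 rested on only 2 to 22 UMIs per library in HSC. Irf9 had -0.50, -0.79 and -0.49 (adjusted p = 0.143), and the remaining members had adjusted p from 0.482 to 0.995.

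**Figure D4:**
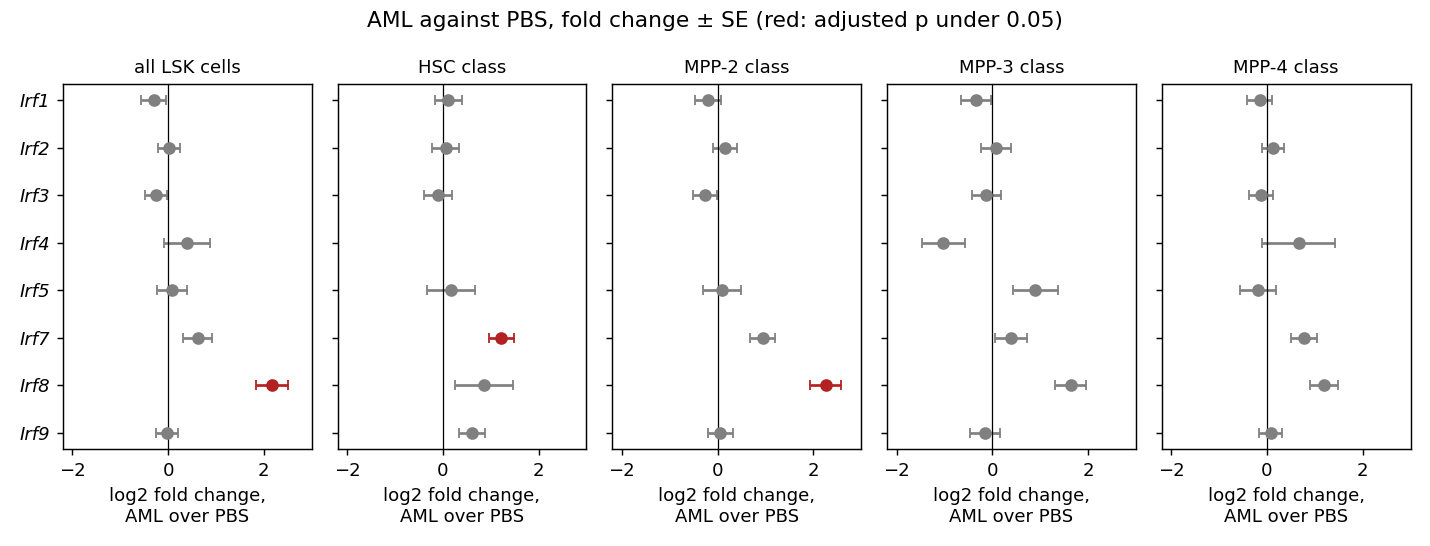
Log2 fold change of each tested member, AML over PBS, with bars for 1 standard error (edgeR), over all LSK cells and in each class; red marks an adjusted p under 0.05. Irf8 lies right of 0 in every panel and is red over all LSK cells and in MPP-2, and Irf7 is red in the HSC class.

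In the clusters Irf8 was called in 3 of the 5 tested. Cluster 2 had 43.4, 20.7 and 47.6 CPM in PBS1, PBS2 and PBS3 and 146 and 101 CPM in AML1 and AML3 (log2 fold change 1.54 ± 0.285, edgeR adjusted p = 0.00321; background 0.199%, or 0.173% higher). Cluster 1 had 13.2, 6.57 and 16.9 CPM against 117 and 41.6 CPM (2.48 ± 0.406, adjusted p = 0.0104; background 0.155%, or 0.146% higher). Cluster 3 had 14.5, 7.49 and 16.5 CPM against 102 and 48.7 CPM (2.12 ± 0.329, adjusted p = 0.000174; 2 of 7 members called, background 0.156%, or 0.137% higher). In each the AML libraries were both above the PBS libraries, and AML1 was the higher of them. These calls were lost without PBS2 in clusters 1 (adjusted p = 0.126) and 2 (adjusted p = 0.0579), and without AML1 in clusters 2 (adjusted p = 0.0660) and 3 (adjusted p = 0.117). Monocyte markers summed to 17.1 to 27.6 CPM against 56.4 and 35.0 CPM in cluster 1, and to 16.2 to 21.4 CPM against 12.0 and 22.1 CPM in cluster 3.

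In cluster 4, where Irf8 was already high in PBS mice, the log2 fold change was 1.10 ± 0.334 and did not pass (adjusted p = 0.183; 0 of 7 members called, background 0.522%, or 0.232% higher). Cluster 0, the largest, had 6.30, 3.35 and 8.98 CPM against 45.6 and 19.2 CPM (2.00 ± 0.405, adjusted p = 0.119; 0 of 7 members called, background 0.0407%). Irf7 was called in cluster 3 only, among clusters 0 to 4: 40.7, 33.7 and 33.1 CPM in PBS1, PBS2 and PBS3 against 60.2 CPM (10 UMIs) in AML1 and 95.3 CPM in AML3 (1.20 ± 0.269, adjusted p = 0.0443). The groups did not overlap there, but leaving out any 1 of the 5 libraries ended the call (adjusted p 0.121 to 0.680). Clusters 5 to 8 had at most 1 AML library with 20 cells and were not tested.

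Counted by cells, an Irf8 UMI was found in a larger share of AML cells. A UMI was found in 7.25%, 8.14% and 9.80% of the cells of PBS1, PBS2 and PBS3 and in 19.6% and 22.4% of the cells of AML1 and AML3. Both AML libraries were higher although AML1 had the shallowest cells. After thinning each cell to 2000 UMIs, which kept every cell of PBS2, AML1 and AML3, 6713 of PBS1 and 4318 of PBS3, the shares were 3.47%, 2.03% and 4.03% against 15.7% and 9.72%. With 3 and 2 libraries the exact two-sided permutation test gave p = 0.2 for both, the smallest value it can give here, so it cannot pass. As a measure of free RNA, cluster 7, whose erythroid markers summed to 9514 CPM or more, had an Irf8 UMI in 0 of 34 cells of PBS1 (which allows a share of up to 8.82%), 2 of 42 of PBS3 (4.76%) and 0 of 21 of AML3 (up to 14.3%), at median depths of 7189, 6625 and 5771 UMIs. The 7.25% of PBS1 lies under its limit of 8.82%, and PBS2 and AML1 had too few cluster 7 cells. Barcodes under 1000 UMIs outside the authors' table had Irf8 at 9.41, 39.3 and 13.5 CPM in PBS1, PBS2 and PBS3 (2 to 4 UMIs) and at 37.3 and 23.3 CPM in AML1 and AML3. Intervals and limits of this kind cover counting error only.

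**Figure D5:**
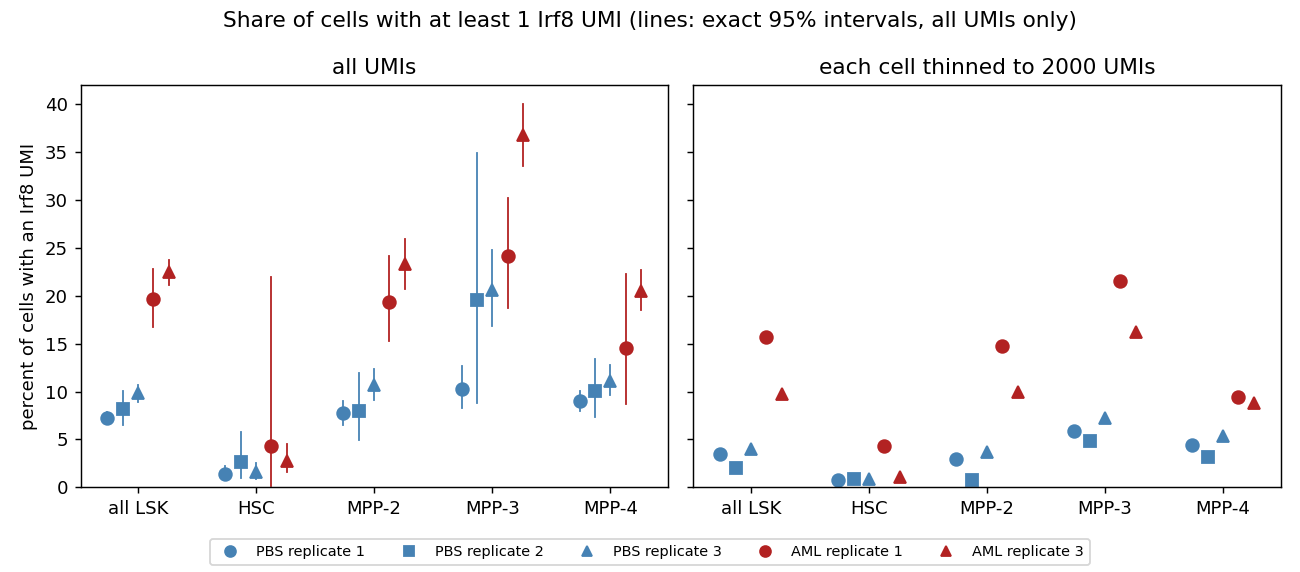
Percent of cells with at least 1 Irf8 UMI, 1 point per library, over all LSK cells and by class, with all UMIs (left, lines are exact 95% binomial intervals) and after thinning to 2000 UMIs per cell (right). The AML points lie above the PBS points over all LSK cells, at 19.6% and 22.4% on the left and 15.7% and 9.72% on the right.

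The shares differed by class as the levels did. In the HSC class Irf8 was found in 1.43%, 2.69% and 1.56% of PBS1, PBS2 and PBS3 cells and in 4.35% (of 23 cells) and 2.77% of AML1 and AML3 cells. These shares are not above the 4.76% of cluster 7 in PBS3, which rests on 2 cells, so neither expression nor a difference is read from them. In MPP-3 cells it was 10.3%, 19.5% and 20.6% against 24.1% and 36.7%, and after thinning 5.92%, 4.88% and 7.21% against 21.5% and 16.2%. Cluster 4 had 44.7%, 30.4% and 54.0% against 41.6% and 69.1%, where the groups overlapped. Cells with 3 or more Irf8 UMIs were 0.717%, 0.535% and 0.932% of the PBS libraries and 2.89% and 7.27% of AML1 and AML3, and the highest count in a cell was 15 UMIs, in AML3.

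Irf7 was detected in 25%, 37.6% and 17.6% of cells of PBS1, PBS2 and PBS3 and in 13% and 46.4% of those of AML1 and AML3. Thinned to 2000 UMIs the shares were 14.6%, 10.4% and 8.80% against 9.09% and 23.9%, and AML1 stayed inside the PBS range. Cluster 7 had an Irf7 UMI in 35.3%, 21.4% and 52.4% of its cells in PBS1, PBS3 and AML3, and thinned in 11.8%, 11.9% and 33.3%. Cluster 7 thus gives no background for Irf7, and the Irf7 shares are given as a description. In the HSC class a UMI of Irf7 was found in 22.1%, 31.4% and 15.7% of PBS cells, 21.7% of AML1 cells and 51.1% of AML3 cells. Irf4 was found in at most 1.16% of the cells of a library.

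Cells with an Irf8 UMI were also more often positive for Ly86, a Toll-like receptor accessory protein of monocytes and B cells. Ly86 was detected in 29.4%, 17.1% and 35.5% of the Irf8-positive cells of PBS1, PBS2 and PBS3 and in 58.8% and 61.8% of those of AML1 and AML3, against 3.15%, 3.96% and 3.86% and 20.8% and 10.6% of Irf8-negative cells. Irf8-positive cells were deeper in every library (medians of 5939, 14710, 6546, 2449.5 and 8741 UMIs against 3899, 9264.5, 4222, 2388 and 5335). Irf7 did not follow Irf8 in this way: it was detected in 24.4%, 34.2%, 19.7%, 11% and 39.5% of Irf8-positive cells and in 25%, 37.9%, 17.4%, 13.5% and 48.4% of the others. Csf1r, the receptor of the monocyte growth factor, was found in 2.63% to 6.26% of the Irf8-positive cells in PBS and in 3.68% and 16.7% in AML1 and AML3, against 0.426% to 1.01% and 1.44% and 2.41% of Irf8-negative cells. Flt3, a growth factor receptor of lymphoid and dendritic progenitors, was found in 74.0% to 84.2% of Irf8-positive PBS cells and 36.0% and 81.1% in AML1 and AML3, against 48.5% to 61.5% and 30.7% and 61.1% of the others. Mpo, the granule enzyme of myeloid progenitors, was found in 39.7% to 55.3% and in 52.2% and 51.6%, against 18% to 27.3% and 41.8% and 27.4%.

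Lists of genes around the family were then read by role. They were chosen with earlier results of these data known, so counts of calls in them are descriptions and no independent support. Of the 10 interferon ligands none reached the count filter over all LSK cells. None of 10 receptor, JAK and STAT genes was called (median log2 fold change 0.07). Stat2, which joins Irf9 in the type I interferon complex, was 11.9, 10.1 and 10.5 CPM in PBS1, PBS2 and PBS3 against 12.3 and 16.6 CPM in AML1 and AML3 (0.45 ± 0.226, adjusted p = 0.506). None of 16 sensors, adaptors and kinases upstream of Irf3, Irf5 and Irf7 was called (median 0.09), the lowest p values being those of the adaptor Traf3 (0.55 ± 0.227, adjusted p = 0.421) and the DNA sensor Cgas (0.38, adjusted p = 0.560). None of 10 DNA-binding partners of Irf4 and Irf8 was called either (median 0.16): Ikzf3 had 1.15 (adjusted p = 0.406) and Batf -0.44 (adjusted p = 0.489). Of 7 inhibitors none was called (median -0.03), with Usp18 at 0.51 (adjusted p = 0.518) and Socs3 at -0.45 (adjusted p = 0.718).

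Of these lists, that of monocyte and dendritic cell genes, of the lineages that need Irf8, was the one with calls over all LSK cells, 4 of the 23 genes called there. Of 17 genes tested, 4 were called higher and none lower (median 0.89, 15 positive), beside a background of 0.153% called higher. As the list was chosen with earlier results of these data known, this comparison is a description only. Ly86 was 26.6, 12.8 and 36.3 CPM in PBS1, PBS2 and PBS3 and 216 and 145 CPM in AML1 and AML3 (2.78 ± 0.357, adjusted p = 0.00708). F13a1, the coagulation factor subunit made by monocytes, had 4.02, 0.577 and 4.66 CPM against 34.9 and 32.9 CPM (3.31 ± 0.428, adjusted p = 0.00708). Ms4a6c, a membrane protein gene of the monocyte lineage, had 1.74 ± 0.265 and Cybb, the phagocyte oxidase subunit, 2.52 ± 0.403, both with an adjusted p of 0.0183. In all 4 the AML libraries lay above the PBS libraries. The number called was 0 without PBS1, 2 without PBS2, 3 without AML3, 4 without AML1 and 6 without PBS3, and it was 3 with cluster 4 left out and 0 at the PBS cluster composition. By class, Ly86 was also called in MPP-4 (1.73), MPP-3 (2.20) and MPP-2 (2.42), and F13a1 in MPP-3 (2.20). In MPP-4 no gene of the list was called with DESeq2, with limma-voom, after thinning or without PBS3. Without AML3 the list median in MPP-4 was -0.30. HSC had 1 call of this list, Ms4a6c, with 10 UMIs in AML1 (1.21, adjusted p = 0.0105), which was lost without AML1, AML3, PBS1 or PBS2.

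In edgeR, interferon-stimulated targets passed in HSC and not over all cells. Over all LSK cells 0 of 28 interferon-stimulated targets were called in edgeR (3 in DESeq2, and 3 in edgeR without AML3), although 24 had positive log2 fold changes (median 0.43). The lowest p values were those of Ifi27l2a, at 48.7, 87.6 and 84.9 CPM in PBS1, PBS2 and PBS3 against 200 and 207 CPM in AML1 and AML3 (1.42 ± 0.289, adjusted p = 0.0792), and Oas2, an antiviral RNA-sensing enzyme, at 4.70, 4.04 and 3.34 against 9.77 and 10.1 CPM (1.28 ± 0.262, adjusted p = 0.0793). In the HSC class 7 of 28 were called higher (median 0.92; background 0.131% higher), beside the erythroid markers called lower there, and of these 7 Ifit3, an interferon-induced protein binding viral RNA, had the lowest p: 7.64, 10.3 and 9.30 CPM against 48.9 CPM (3 UMIs) in AML1 and 46.1 CPM in AML3 (2.24 ± 0.334, adjusted p = 3.71e-08). The others, named after their values were seen, were Oas2 (1.95), Ifit1 (1.26), Ifi27l2a (1.22), Isg15 (1.12), Oasl2 (1.08) and Ifi44 (1.05). In AML1 they rest on 3 UMIs (Oas2) to 14 UMIs (Isg15) each. The number called in HSC was 0 without AML3 (median 0.55, beside -0.50 over all genes), 1 without AML1, 1 without PBS1 and 5 without either of the other PBS libraries. It was 2 of 26 after thinning to 2000 UMIs per cell and 2 of 28 with the replicate block. With DESeq2 and with limma-voom it was 0 of 28. In MPP-4 1 of 28 was called, Ifit3 (1.84), and in MPP-2 and MPP-3 0 of 27. Ifit3 in MPP-4 was 6.42, 9.38 and 4.96 CPM in PBS1, PBS2 and PBS3. It was 5.71 CPM (2 UMIs) in AML1 and 30.5 CPM in AML3, so the groups overlapped. In MPP-4 0 of 28 were called with limma-voom, after thinning, without PBS1 and without PBS3. Whether these counts differ between classes was not tested.

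Of the targets of interferon gamma and Irf1, 0 of 29 were called over all LSK cells (median 0.11). Cxcl10, a chemokine of the interferon response, was 1.74, 1.06 and 6.20 CPM in PBS1, PBS2 and PBS3 and 5.65 and 14.7 CPM in AML1 and AML3 (1.81 ± 0.547, adjusted p = 0.264), and the GTPase Gbp2 had -0.73 (adjusted p = 0.452). HSC had 2 of 27 called: Cxcl10, with 18, 2 and 18 UMIs in the controls and 1 and 76 UMIs in AML1 and AML3 (2.95 ± 0.419, adjusted p = 4.46e-09), and Iigp1 (1.17). Without AML3 0 of 27 were called, with a list median of -0.63 beside -0.50 over all genes. As for Irf7, DESeq2 and limma-voom called none of these HSC genes.

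Genes whose level followed a member most closely were sought over the 20 library and class sums among 14364 genes, by Pearson's r of log2(CPM + 1). These sums share libraries, depth and cells, so r is a description. Irf8 was followed by Ly86 (0.982), Bcl2 (0.937) and Atp8b4 (0.919), and Irf7 by Xaf1 (0.876) and Usp18 (0.874), which are interferon-stimulated genes. For Irf9 the closest of these genes was another member, Irf1 (0.920), then Rtp4 (0.915) and Dtx3 (0.900). Irf4 was followed by the plasma cell genes Iglv1 (0.95) and Mzb1 (0.95) and by Prg2 (0.941). The values for Irf1 were Hcls1 0.942, Mxd1 0.936 and Dtx3 0.933, and for Irf2 Tet1 0.965, Cat 0.957 and Bcl11a 0.954. Irf3 had Spag7 0.990, H2-M3 0.988 and Ldah 0.986, and Irf5 had Akap8 0.905, Sap30bp 0.897 and Zfp959 0.878. Between members, Irf7 and Irf9 had 0.827, Irf1 and Irf7 0.731, and Irf8 and Irf1 -0.521.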

How the data were processed

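Single-cell RNA of sorted LSK cells was measured in 3 PBS and 3 AML libraries. The authors deposited UMI counts per gene and barcode, made with Cell Ranger 7.0.1 (mm10, GRCm38), and a table of retained cells with class, cluster and phase from Seurat 4.3.0; the submitters' processing notes name these tools. The deposited table also holds counts and percent of mitochondrial UMIs per cell, and the authors' module scores, from which the classes were assigned; 14 of its columns were not used. Doublets were not called here. Counts were summed per library, class and cluster (at least 20 cells) and tested on all genes with edgeR 4.0.16 in R 4.3.3 (TMM, filterByExpr, quasi-likelihood F test, Benjamini-Hochberg, threshold 0.05), PBS against AML without covariates. Simulated counts with known changes were used to test the script. Alternatives were DESeq2 1.42.0, limma 3.58.1, other filters, scaling, thinning and left-out libraries. The members and lists were chosen with earlier results of these data known; from each list, genes called over all LSK cells were named, up to 4, otherwise the 2 with the lowest p, and genes called in classes were named after their values were seen, and for each member the 3 most correlated genes. For 1 gene that this rule names, values are not reported here. Promoter sequences are from RefSeq, GRCm38.p6.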

Additional observations from a re-analysis of the deposited data

Results flagged for a closer look

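The AML effect on Irf8 differed between classes in a direct test: it was 1.26 log2 units larger in MPP-2 than in HSC cells (edgeR adjusted p = 0.00791 over the 3 class terms), and it was -0.17 without AML3, where the median of all genes was 0.55, so no sign is read from that value. The call was lost with limma-voom and with the replicate block, and the HSC side rests on 2 to 22 UMIs of Irf8 per library, so it compares with a fold change of very few counts.

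The second AML library was not among the retained cells and entered no comparison above. A filter of at least 1000 genes and at most 10% mitochondrial UMIs kept 106 of its 17055 barcodes, of which 75 were also barcodes of another library. In these cells Irf8 was at 124 CPM (38 UMIs, exact Poisson interval 87.9 to 170), where the PBS libraries under the same filter had 8.76 to 25.8 CPM. Irf7 was at 121 CPM (37 UMIs, 85.1 to 167) against 45.1 to 77.7 CPM, and Irf2 at 157 CPM (48 UMIs, 116 to 208) against 106 to 110 CPM. Each was noted because it exceeded the control level in data outside the comparisons, and the intervals cover counting error only. In the 31 cells whose barcode was found in this library alone, Irf8 was 205, Irf7 132 and Irf2 366 CPM, and in the 75 with shared barcodes 101, 118 and 96.8 CPM. The 16352 barcodes of this library under 1000 UMIs had 178 CPM of Irf8, 80.2 CPM of Irf7 and 193 CPM of Irf2, so Irf8 and Irf2 were no higher in the 106 cells than in those barcodes. With this library in the fit, under the same filter for all 6, the log2 fold changes were 2.22 for Irf8 (edgeR adjusted p = 0.00234), 0.73 for Irf7 (adjusted p = 0.222) and 0.14 for Irf2 (adjusted p = 0.808). Irf8 was also called under this filter with AML2 left out. AML2 shared 2472 barcodes with PBS3 and 2408 with AML3, so whether it adds an independent AML library cannot be told.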

How the results depend on the processing

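Irf8 over all LSK cells kept its direction in 19 of 19 alternatives (log2 fold change 1.87 to 2.55) and passed in 15 (adjusted p 4.37e-15 to 0.399). The number of members called there, 1 as reported, was 0 with equal weight for the 4 classes (Irf8 1.92, adjusted p = 0.0603) and 0 at the PBS cluster composition, and 0 to 1 with a library left out (0 without PBS1 or AML1). In HSC, where 1 was called, it was 0 with DESeq2, limma-voom and thinning and 0 to 1 with a library left out. In MPP-2, 1 became 0 without the cells in the top 5% of UMI totals, and 0 to 1 with a library left out. In MPP-3, 0 became 1 (Irf8) with DESeq2, library size scaling, no count filter, thinning, clusters 6 to 8 left out and shared barcodes left out, and 0 to 1 with a library left out. In MPP-4, 0 became 1 without a count filter. With a library left out the ranges were 0 to 1 in clusters 0, 1 and 2 and 0 to 1 in cluster 3, where 2 were called. For the difference between classes, 1 became 0 with limma-voom, 2 without a count filter and 0 to 2 with a library left out. The rise in the share of Irf8-positive cells, 12.6 percentage points, was 9.55 points after thinning.

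Signs turned as follows over all LSK cells. With equal class weights Irf1 was 0.056, Irf4 -1.09 and Irf9 0.25, and at the PBS cluster composition Irf4 was -0.082, Irf5 -0.90 and Irf9 0.076. Irf2 was -0.014 without a filter, Irf5 -0.045 without the top 5% and -0.21 without cluster 4, and Irf9 0.016 with limma-voom and 0.031 without cluster 4. With a library left out the ranges were -0.030 to 0.081 (Irf2), -1.79 to 0.74 (Irf4), -0.74 to 0.34 (Irf5), -0.11 to 1.06 (Irf7) and -0.19 to 0.13 (Irf9). For Irf7 they were -0.27 to 1.49 in HSC, -0.36 to 0.74 in MPP-3, -0.045 to 1.13 in MPP-4, -1.12 to 1.06 in cluster 1 and -0.33 to 0.90 in cluster 2, and for the MPP-2 minus HSC difference -0.27 to 0.72 (Irf7) and -0.17 to 1.46 (Irf8). Without AML3 the median of all genes was itself -0.50 in HSC and 0.55 for the MPP-2 minus HSC difference, so no sign is read from the ends -0.27, 0.72 and -0.17 of these ranges. The cause of the other turns was not tested.

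Same-numbered libraries had correlations of their deviations from the group mean of -0.10 and -0.13 over 14364 genes. With 2 AML libraries the deviations of AML1 and AML3 mirror each other, so these values cannot tell whether replicate numbers pair libraries. With the replicate block the number of members called was 1 over all LSK cells (Irf8 1.87), 0 in HSC (Irf7 1.15, adjusted p = 0.840), 1 in MPP-2, 1 in MPP-3 and 0 for the difference between classes, and over all LSK cells Irf4 was -0.18 and Irf9 0.12.

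Counts over all genes moved more: 23 over all LSK cells became 83 with DESeq2, 392 without a filter, 91 with the replicate block, 10 after thinning, 12 without cluster 4, 75 with the own filter on 6 libraries, 2 with equal class weights, 0 at the PBS cluster composition (a limma test) and 2 to 419 with a library left out. Over their alternatives they ran from 0 to 29 in HSC (19 as reported), 0 to 156 in MPP-2 (5), 2 to 166 in MPP-3 (5), 0 to 75 in MPP-4 (4), 0 to 142 in cluster 0 (5), 4 to 496 in cluster 1 (18), 8 to 109 in cluster 2 (23), 2 to 17 in cluster 3 (16), 18 to 101 in cluster 4 (45) and 1 to 506 for the difference between classes (111). With 2 AML libraries, AML1 having 693 cells and 23 in HSC, depth limits what can be seen of Irf8 in HSC, of Irf4, and of Irf5.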
